A study of Mus musculus with 6 samples.

Results

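The genes described here are the zinc-dependent histone deacetylases other than the HDAC1 and HDAC2 pair, namely Hdac3, Hdac4, Hdac5, Hdac6, Hdac7, Hdac8, Hdac9, Hdac10 and Hdac11. They were chosen by gene symbol as deacetylases that could compensate for Hdac2, and all 9 were found among the 17313 genes of the deposited table. Sequence relatedness places Hdac3 and Hdac8 in class I with Hdac1 and Hdac2, Hdac4, Hdac5, Hdac7 and Hdac9 in class IIa, Hdac6 and Hdac10 in class IIb, and Hdac11 alone in class IV, so the set reaches beyond class II. RNA was sequenced from macrophages grown from mouse bone marrow on the C57BL/6 background. Hdac2fl/fl mice, here WT (3 libraries), carried floxed Hdac2 alleles without Cre, and Hdac2fl/fLysMCre mice, here KO (3 libraries), also carried LysM-Cre, a recombinase expressed from the Lyz2 locus and so limited to myeloid cells that use that gene. Mice of both genotypes had received LLC1 cells, a Lewis lung carcinoma line, into a vein, and marrow was collected on day 20. Ages, sexes and pooling of animals are not given in the sources used here, and p-values therefore measure the spread between libraries, part of which may be technical.

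Histone deacetylases remove acetyl groups from lysines, and those described here differ in where and how they act. HDAC3 is the catalytic subunit of the NCoR corepressor, through which unliganded nuclear receptors keep macrophage genes silent, and HDAC8 acts on the cohesin subunit SMC3. Class IIa proteins have little catalytic activity of their own, bind MEF2 transcription factors, and leave the nucleus on 14-3-3 proteins once kinases have phosphorylated them, while HDAC6 deacetylates tubulin in the cytoplasm and HDAC10 deacetylates polyamines.

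Stretches of promoter sequence are shown because they belong to the members whose KO and WT values did not overlap, Hdac7 and Hdac6, and to the targeted gene, Hdac2. Each is the 250 bases before an annotated start that GENCODE M21 marks as that of a principal transcript, outside any annotated exon, read 5′ to 3′ on the gene's strand from RefSeq (GRCm38.p6, the mm10 assembly). Capitals mark GC boxes, the SP1-family motif GGGCGG or its reverse complement CCGCCC, chosen because the title of the study names SP1.

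Hdac7, chr15:97831768-97832017, minus strand: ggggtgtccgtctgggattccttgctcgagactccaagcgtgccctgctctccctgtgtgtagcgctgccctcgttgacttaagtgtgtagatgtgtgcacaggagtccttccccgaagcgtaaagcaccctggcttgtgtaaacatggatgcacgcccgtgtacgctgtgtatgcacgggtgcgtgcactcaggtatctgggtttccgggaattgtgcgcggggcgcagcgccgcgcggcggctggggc

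Hdac6, chrX:7947890-7948139, minus strand: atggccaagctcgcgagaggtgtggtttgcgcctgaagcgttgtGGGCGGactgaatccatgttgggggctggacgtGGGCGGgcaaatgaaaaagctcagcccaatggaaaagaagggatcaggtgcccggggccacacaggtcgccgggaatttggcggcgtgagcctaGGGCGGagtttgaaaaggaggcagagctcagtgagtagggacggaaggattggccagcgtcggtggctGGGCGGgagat

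Hdac2, chr10:36974294-36974543, plus strand: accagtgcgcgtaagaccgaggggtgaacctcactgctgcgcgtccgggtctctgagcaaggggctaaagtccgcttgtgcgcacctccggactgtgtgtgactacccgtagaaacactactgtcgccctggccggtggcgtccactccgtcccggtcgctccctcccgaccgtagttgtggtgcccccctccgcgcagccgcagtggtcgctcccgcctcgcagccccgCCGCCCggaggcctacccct

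The Hdac6 window held 4 GC boxes, the Hdac2 window 1 and the Hdac7 window 0. Of all 32851 RefSeq windows of this length, 32.7% held at least 1 GC box. RefSeq lists 4 windows for Hdac7, of which 1 other held a single GC box, and the window printed here is intronic to longer Hdac7 transcripts. The values by gene do not tell its start sites apart. Windows were found for 7 of the 9 members. Those of Hdac4, Hdac5 and Hdac11 held 4, 1 and 1 GC boxes, and those of Hdac8 and Hdac9 held none of these letters.

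Values are the authors' normalized and rounded reads per gene, called scaled counts here, and they summed to between 5704313 and 5837994 in a library. For every gene, WT 1, WT 2 and WT 3 are given in that order, then KO 1, KO 2 and KO 3. The targeted gene Hdac2 (ENSMUSG00000019777, chromosome 10, 36974544 to 37001889) stood at 534, 482 and 518 scaled counts in WT, against 392, 387 and 375 in KO. All KO libraries were lower than all WT libraries, with a ratio of means of 0.752. The deleted exons are not given in the sources used here, and reads from the remaining exons can count for the gene. The exact two-sided permutation test gave p = 0.1, the smallest that 3 against 3 allows. Lyz2, the locus that carries the Cre, stood at 1068, 1144 and 1055 in WT, against 930, 942 and 953 in KO.

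All 10 macrophage markers, Adgre1, Cd68 and Csf1r among them, were found and summed to 13904 to 14720 in WT and 13134 to 13533 in KO, with 8 of 10 lower in every KO library than in every WT library (13.4% of all genes). The libraries also differed in sex-linked genes and in markers of other cell types, both between the genotypes and within WT. Xist stood at 5243, 0 and 74 in WT 1, WT 2 and WT 3 and at 3298 to 4997 in KO, while the Y-linked genes Ddx3y, Kdm5d, Eif2s3y and Uty summed to 137, 1372 and 2100 in WT and to 0 to 19 in KO. The 12 fibroblast and marrow stroma markers included Col1a1 and Pdgfrb. They summed to 13920, 5818 and 6325 in WT and to 14256 to 18270 in KO. Of the 12, 10 were high enough to be tested. In 6 of 12, every KO library was higher than every WT library (16.1% of all genes tested). None was at 0 throughout, but Lum, Lepr, Dcn and Thy1 did not exceed 26 scaled counts in any library. The sum therefore rests mostly on the other markers. The osteoclast markers found, 7 of 8, summed to 1894, 3334 and 3024 in WT and to 1325 to 1655 in KO. Of these, 2 (Atp6v0d2 and Acp5) were lower in every KO library than in every WT library (13.4% of all genes). Ctsk had a higher KO mean with overlap, at 185, 159 and 133 in WT, against 217, 183 and 152 in KO. Oscar also had a higher KO mean, but did not exceed 5 scaled counts in any library. The dendritic cell markers found, 3 of 7, summed to 1695, 2348 and 2114 in WT and to 1200 to 1576 in KO. Itgax made up nearly all of that sum. Zbtb46 went the other way, each KO value (51, 43, 48) exceeding each WT value (37, 16, 22). Clec9a was lower in KO, like Itgax, but did not exceed 5 scaled counts in any library. In bulk RNA, fewer cells of a type and less RNA per cell cannot be told apart. Many defining markers of neutrophils, T cells and B cells were not among the genes analysed here (7 of 9, 4 of 7 and 3 of 6). The part of stroma, osteoclast, dendritic cell marker and sex-linked differences in the results below was not tested. The differences of all members without WT 1, and against WT 1 alone, are plotted beside those of all 6 libraries.

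In the comparison of KO with WT, Hdac7 was the member with the largest difference, 1.56 times as high in the KO mean. Hdac6 stood 1.09 times as high without overlap between the groups, Hdac11 1.301 times as high with overlap, and Hdac5 and Hdac9 at 0.866 and 0.859 of WT, also with overlap. Hdac3, Hdac4, Hdac8 and Hdac10 had KO means between 0.985 and 1.04 of WT.

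None of the 9 members passed limma's test at an adjusted p under 0.05, as for 0% of the 13260 genes tested. At an unadjusted p under 0.05, 2 members were higher (Hdac6 and Hdac7), against 14.7% of all genes, and 0 were lower, against 9.68%. The same 2 had every KO library above every WT library, which was so for 16.1% of all genes, and 0 members had every KO library below, against 13.4%. A count of 2 in 9 is near these backgrounds and is not a result about the members as a set. The median difference of the members was 0.03 on the log2(scaled count + 1) scale, beside -0.0046 for all genes tested.

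**Figure D1:**
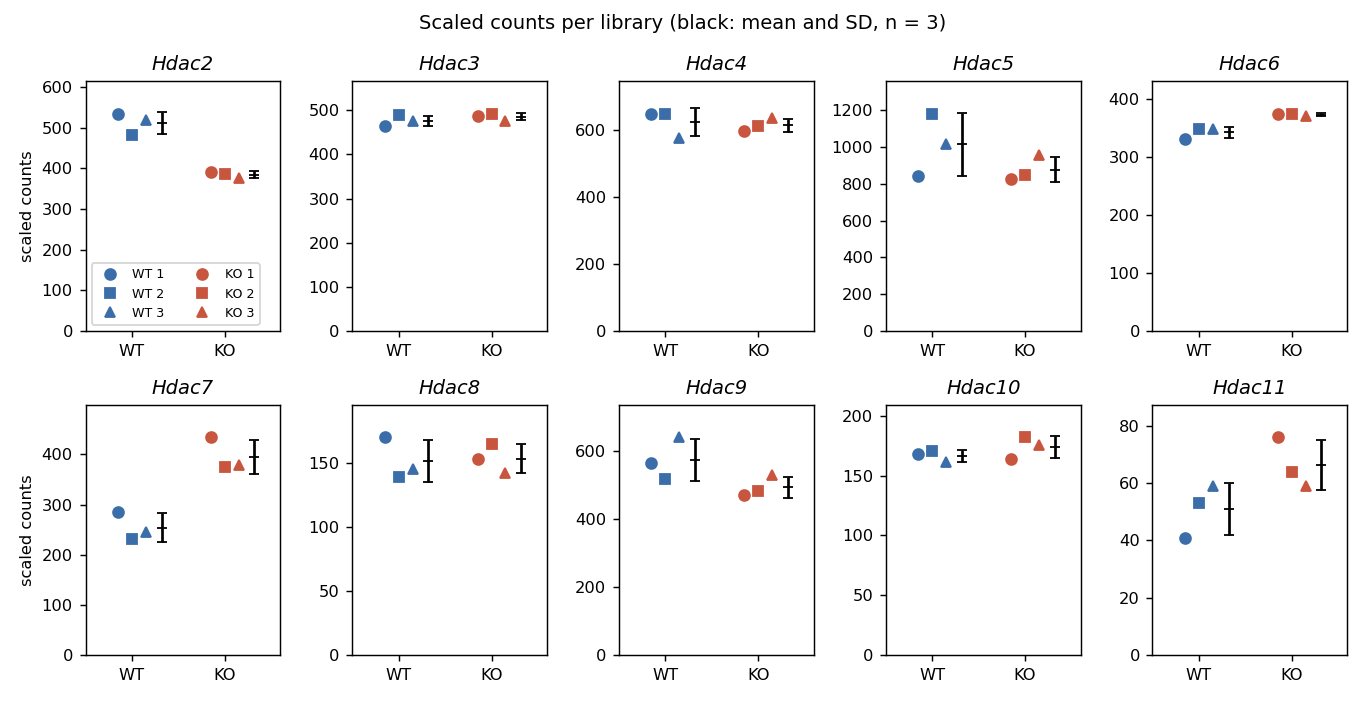
Scaled counts of Hdac2 and the 9 members in each library, with WT in blue and KO in red, marker shape giving the replicate number, and black bars the mean and SD (n = 3). The groups do not overlap for Hdac2, Hdac6 and Hdac7, and Hdac5 spans 842 to 1179 within WT alone.

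Hdac3 (ENSMUSG00000024454, chromosome 18, 37935844 to 37955016) had the lowest coefficient of variation of the members over the 6 libraries, 2.17%. It stood at 464, 488 and 475 scaled counts in WT, against 486, 492 and 476 in KO, 476 ± 12.01 against 485 ± 8.08 (SD, n = 3). The 6 libraries lay within 28 scaled counts of each other, and the groups overlapped. The log2 difference was 0.03 ± 0.046 (SE), with a 95% interval from 0.943-fold to 1.10-fold, so an Hdac3 level in KO above 1.10-fold of WT lies outside the interval. The adjusted p from limma was 0.767, and under the alternatives the difference stayed between 0.01 and 0.06.

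Hdac8 (ENSMUSG00000067567, chromosome X, 102284639 to 102505359), the X-linked class I enzyme that acts on cohesin, stood at 170, 139 and 145 in WT, against 153, 165 and 142 in KO. WT 1 was highest, and the groups overlapped throughout, with means of 151 ± 16.4 and 153 ± 11.5 (SD, n = 3). The log2 difference was 0.02 ± 0.11 (SE) and the interval ran from 0.840-fold to 1.23-fold. Its sign was not fixed: against WT 1 alone the difference was -0.15, and without WT 1 it was 0.11.

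Hdac1, the closest relative of Hdac2, stood at 373, 357 and 336 in WT, against 356, 365 and 354 in KO, with an interval from 0.913-fold to 1.12-fold. The 3 class I genes other than Hdac2 summed to 252 ± 6.65 scaled counts per kb of exon in WT and 255 ± 5.96 in KO (SD, n = 3). The Hdac2 share of the class I level per kb was 31.2% ± 1.18 in WT and 25.2% ± 0.364 in KO, with all KO libraries lower than all WT libraries.

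Among the class IIa genes, Hdac7 (ENSMUSG00000022475, chromosome 15, 97792664 to 97844502), best known for repressing MEF2-driven genes in thymocytes and endothelial cells, stood at 286, 231 and 245 scaled counts in WT, against 434, 374 and 378 in KO. Each KO library exceeded each WT library, and the lowest KO value, 374, was 88 above the highest WT value, that of WT 1. The means were 254 ± 28.6 and 395 ± 33.5 (SD, n = 3), and the log2 difference was 0.64 ± 0.10 (SE), with a 95% interval from 1.31-fold to 1.86-fold. The adjusted p from limma was 0.158, the same as the smallest of any gene in that fit. Hdac7 shares 29 exonic bases with Slc48a1 on the opposite strand.

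Hdac7 was the only member whose call changed when a library was left out. Without WT 1 the difference was 0.73 ± 0.092 (SE) with a limma adjusted p of 0.0048, and 1 of 9 members was then called higher and 0 lower, against 12.8% and 5.07% of all genes. That fit compares KO with WT 2 and WT 3, the libraries with low Xist and few stroma reads, so genotype cannot be told apart from those features in it. Against WT 1 alone, taken to have the spread of the KO libraries, the difference was 0.46, with an interval from 0.16 to 0.77 and an adjusted p of 0.79. The 16 alternatives gave differences from 0.46 to 0.73, with KO higher in each. Since the groups do not overlap, leaving out libraries could not have changed that sign. The filter, variance model and replicate block settings cannot move the difference. Adjusted p-values from limma ran from 0.0048 to 0.44 in the alternatives other than WT 1 alone.

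The summed stroma markers were also higher in each KO library than in each WT library. Of the WT libraries, WT 1 lay nearest to KO both for Hdac7 and for that sum. On the log2 scale, WT 1 lay 36.4% of the way from WT 2 and WT 3 to KO for Hdac7, and 83.9% for the sum. Of the 1691 genes called higher without WT 1, Hdac7 among them, 87.3% had WT 1 nearer KO. In 5.2% it lay at or below the place of Hdac7. Each place rests on WT 1 alone, and the genes were called in these same data, so the shares are a description only. The part of the stroma markers in the Hdac7 and Hdac6 values was not tested.

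**Figure D2:**
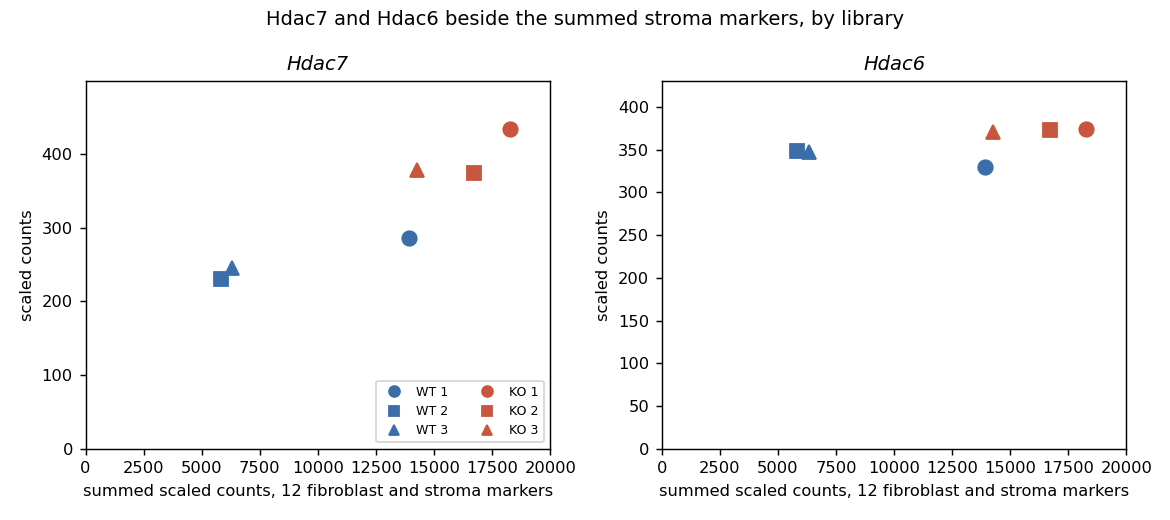
Scaled counts of Hdac7 (left) and Hdac6 (right) against the summed scaled counts of the 12 fibroblast and stroma markers, 1 point per library. The marker sum runs from 5818 to 13920 in WT and from 14256 to 18270 in KO, so both axes separate the groups, and the part of the markers in the gene values was not tested.

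Hdac5 (ENSMUSG00000008855, chromosome 11, 102194432 to 102230166), a class IIa repressor studied chiefly in heart and skeletal muscle, had a wide spread within WT. It stood at 842, 1179 and 1015 in WT, against 827, 848 and 953 in KO. WT 1 lay among the KO libraries, and the 1012 ± 169 of WT overlapped the 876 ± 67.5 of KO (SD, n = 3). The log2 difference was -0.20 ± 0.13 (SE), from 0.702-fold to 1.08-fold. It was -0.32 without WT 1 (limma adjusted p = 0.0706) and 0.05 against WT 1 alone, so its direction rested on which WT libraries were used.

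Hdac9 (ENSMUSG00000004698, chromosome 12, 34047580 to 34917095), a class IIa gene linked to vascular and T cell traits, stood at 563, 518 and 639 in WT, against 469, 480 and 528 in KO. The KO values were lower except that the 528 of KO 3 exceeded the 518 of WT 2. The log2 difference was -0.22 ± 0.092 (SE), with an interval from 0.738-fold to 1.00-fold and a limma adjusted p of 0.215. It kept its sign in 16 of 16 alternatives, from -0.29 to -0.14, though the filter, variance model and replicate block settings cannot move it.

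Hdac4 (ENSMUSG00000026313, chromosome 1, 91928779 to 92195699), the class IIa member known for restraining chondrocyte hypertrophy, stood at 649, 649 and 575 in WT, against 598, 611 and 636 in KO. The KO values all lay inside the WT range, and the interval ran from 0.885-fold to 1.10-fold. An opposite-strand noncoding model shares 3536 of its 15813 exonic bases, and the strand setting of the counting is not stated. The 4 class IIa genes summed to 231 ± 13.6 scaled counts per kb in WT and 231 ± 8.97 in KO (SD, n = 3). Within that sum Hdac7 made up 19.5%, 13.97% and 15.6% in WT and 28.1%, 24.8% and 23.2% in KO, without overlap. Hdac5 made up 49.6% ± 5.399 in WT and 43.2% ± 1.91 in KO, with overlap.

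Of the class IIb genes, Hdac6 (ENSMUSG00000031161, chromosome X, 7930120 to 7947889), whose protein deacetylates tubulin and HSP90 and carries ubiquitinated cargo to the aggresome, stood at 330, 348 and 347 in WT, against 374, 373 and 370 in KO. The groups did not overlap, but the gap between the highest WT and lowest KO library was 22 scaled counts. The means were 342 ± 10.1 and 372 ± 2.08 (SD, n = 3), a difference of 30.7. The log2 difference was 0.12 ± 0.051 (SE), the interval from 1.00-fold to 1.19-fold and the limma adjusted p 0.204. WT 1 was the lowest of the libraries here, and the difference was 0.17 against WT 1 alone and 0.10 without it.

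Hdac6 and Hdac8 lie on the X chromosome. Of 437 X-linked genes tested, 53 (12.1%) had all KO libraries above all WT libraries and 56 (12.8%) had them below, compared with 16.3% and 13.4% of the other genes. The WT 1 library, high in Xist like the KO libraries, was the lowest of the 6 for Hdac6 and the highest for Hdac8.

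Hdac10 (ENSMUSG00000062906, chromosome 15, 89123307 to 89128700), the polyamine deacetylase, stood at 168, 171 and 161 in WT, against 164, 182 and 176 in KO. The groups overlapped, the log2 difference was 0.06 ± 0.079 (SE) and the interval ran from 0.913-fold to 1.19-fold. It kept its sign in 16 of 16 alternatives, from 0.03 to 0.10, though the filter, variance model and replicate block settings cannot move it.

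Hdac11 (ENSMUSG00000034245, chromosome 6, 91156665 to 91174692), the single class IV gene, whose enzyme removes fatty acyl groups and has been tied to Il10 in antigen-presenting cells, had the lowest level per kb of exon of the set. It stood at 41, 53 and 59 in WT, against 76, 64 and 59 in KO. WT 3 and KO 3 had the same value, so the groups met without separating, at 51.0 ± 9.17 and 66.3 ± 8.74 (SD, n = 3). The log2 difference was 0.38 ± 0.19 (SE), from 0.946-fold to 1.79-fold, with a limma adjusted p of 0.271. It was 0.67 against WT 1 alone and 0.23 without WT 1. Opposite-strand models share 594 and 96 of its 3849 exonic bases, and whether their reads were counted apart from those of Hdac11 is not stated.

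**Figure D3:**
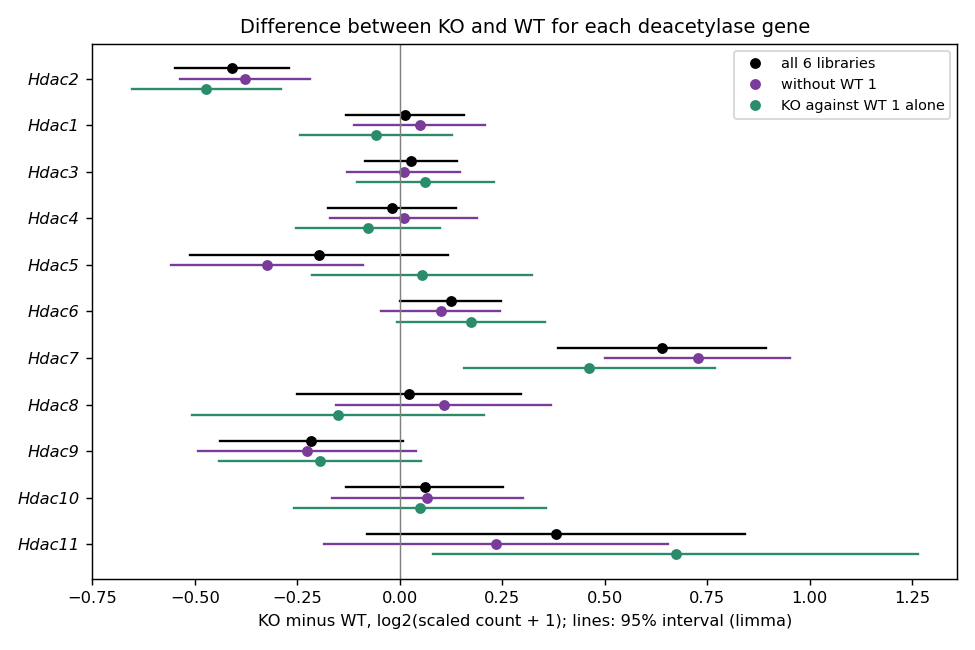
Difference between KO and WT on the log2(scaled count + 1) scale for Hdac2, Hdac1 and the 9 members, with 95% intervals from limma. Black is the fit of all 6 libraries, purple the fit without WT 1 and green the fit of KO against WT 1 alone. The Hdac7 intervals lie above 0 in all 3 fits, and the estimates for Hdac1, Hdac4, Hdac5 and Hdac8 change sign between them.

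To compare levels between genes, scaled counts were divided by exonic length. Hdac3 had the highest mean over the 6 libraries, at 118 ± 2.57 scaled counts per kb, followed by Hdac5 at 108 ± 15.6, Hdac1 at 104 ± 3.60 and Hdac2 at 100 ± 16.0 (SD, n = 6). The ranges of neighbours in this group of 4 overlapped. Hdac6 at 61.4 ± 3.10 lay clear of Hdac2, and Hdac10 at 50.4 ± 2.30 clear of Hdac6. Hdac7 at 48.1 ± 12.2 overlapped Hdac10, and Hdac7, Hdac4 at 39.2 ± 1.90, Hdac9 at 36.3 ± 4.24 and Hdac8 at 31.5 ± 2.63 each overlapped the next, and Hdac11 at 15.2 ± 3.01 was clear below them. These levels put Hdac3 above 71.7% of the genes tested and Hdac11 above 17.7%. The order of the upper group differed between the genotypes. In WT, Hdac5 (115 per kb) and Hdac2 (114) had higher means than Hdac1 (103), and in KO, Hdac1 (104) had a higher mean than Hdac5 (99.8) and Hdac2 (86.0). Hdac7 ranked between Hdac9 and Hdac8 in WT, at 37.6 ± 4.23 per kb, and just below Hdac6 in KO, at 58.5 ± 4.97 against 64.0 ± 0.358 (SD, n = 3).

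**Figure D4:**
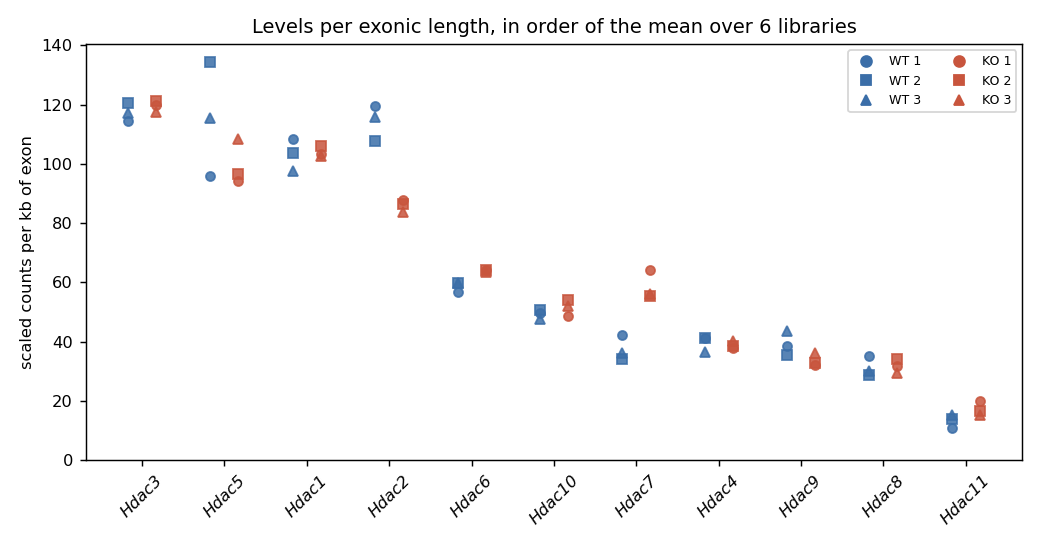
Scaled counts per kb of exon for the 11 zinc-dependent deacetylase genes in each library (WT blue, KO red), ordered by the mean over all 6. Hdac3, Hdac5, Hdac1 and Hdac2 form the upper group, and Hdac7 stands beside Hdac4 and Hdac9 in WT and beside Hdac6 in KO.

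Per kb of exon, the KO mean minus the WT mean was -28.3 scaled counts for Hdac2 and 20.9 for Hdac7, the largest differences among these genes. It was -15.5 for Hdac5, -5.52 for Hdac9, 5.27 for Hdac6 and 3.98 for Hdac11. The 9 members together reached 484, 518 and 502 per kb in WT, against 512, 513 and 519 in KO, with overlap. Without Hdac7 the other 8 summed to 464 ± 21.01 in WT and 456 ± 7.41 in KO (SD, n = 3). All 11 genes summed to 712, 730 and 715 in WT and to 703, 706 and 705 in KO. This total was lower in each KO library than in each WT library, with a ratio of means of 0.980. It includes the targeted gene. The KO mean minus the WT mean was -14.1 per kb for the total, beside the -28.3 of Hdac2 alone.

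Genes that work with HDAC3 were looked at next. Of 6 genes of the NCoR corepressor, 2 had a higher and 4 a lower KO mean. The list had a median log2 difference of -0.02, and 0 passed the adjusted threshold. The scaffold gene Ncor1 stood at 2142, 2018 and 2148 in WT, against 2130, 2175 and 2059 in KO, with overlap. Coro2a, an actin-binding component that links the corepressor to its release from promoters, stood at 1275, 1512 and 1413 in WT, against 1017, 973 and 1221 in KO, a log2 difference of -0.39 ± 0.11 (SE). Its KO libraries all lay below its WT libraries (limma adjusted p = 0.158, and 0.038 without WT 1). In the fit without WT 1, 12.8% of all genes were called higher and 5.07% lower. Genotype cannot be told apart there from low Xist and few stroma marker reads, which holds for the partner genes below as well.

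Of 11 transcription factors that recruit these corepressors, 4 were higher and 7 lower, with a median of -0.15. At an unadjusted p under 0.05, 1 of the 11 was higher (Nr1d1) and 4 were lower (Nr1h3 and the 3 that follow), where all genes gave 14.7% and 9.68%, and 0 passed the adjusted threshold. Bcl6, a repressor of inflammatory genes, stood at 964, 1047 and 1023 in WT, against 776, 759 and 948 in KO. Cebpb stood at 367, 394 and 362 and at 288, 281 and 348, and Spi1, which encodes the macrophage factor PU.1, at 872, 1018 and 943 and at 775, 805 and 856. All 3 were without overlap, with limma adjusted p-values of 0.159, 0.160 and 0.163. They were the 3 of the 11 with every KO library lower, against 13.4% of all genes, and 1 of the 11 had every KO library higher, against 16.1%. Against WT 1 alone the median of the list was -0.03.

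Of 14 genes of cohesin and its regulators, the substrate side of HDAC8, 9 were higher and 5 lower, with a median of 0.02, and 0 passed. None had separate groups. Smc3, which encodes that substrate, stood at 770, 358 and 854 in WT, against 848, 844 and 482 in KO, with WT 2 and KO 3 well below the others. WT 2 and KO 3 were the lowest 2 libraries in 10 of the 14 genes, compared with 12.9% of all genes tested, a pattern looked at after the values were seen. Of the 9 members, 1 (11.1%) showed it, near the share of all genes. That member was Hdac8, by a small margin, with 142 in KO 3 and 145 in WT 3. The members of the list with the smallest p were Sgo1, at 208, 111 and 232 and at 273, 308 and 210, Cdca5 and Smc1a, with limma adjusted p-values of 0.295, 0.483 and 0.521.

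Partners of the class IIa proteins came next. All 3 tested MEF2 genes were lower in the KO mean with overlap, by -0.08 for Mef2a, -0.12 for Mef2c and -0.21 for Mef2d on the log2 scale. All 7 genes for 14-3-3 proteins were lower in KO by the mean, with a median of -0.13, 4 without overlap (against 13.4% of all genes with every KO library lower) and 0 past the adjusted threshold. Against WT 1 alone the median was -0.05. Ywhag stood at 1708, 1886 and 1706 in WT, against 1520, 1503 and 1694 in KO. Ywhaz stood at 609, 660 and 642 in WT, against 573, 577 and 591 in KO, and Ywhah at 481, 577 and 530 and at 457, 443 and 475. Of 14 tested kinases, 6 were higher and 8 lower, with a median of -0.03 and 0 past the adjusted threshold. Prkd1, which encodes protein kinase D1, stood at 26, 1 and 10 in WT, against 56, 38 and 35 in KO (limma adjusted p = 0.191, and 0.0341 without WT 1). Its log2 difference of 2.36 rests on low values, 1 scaled count in WT 2 among them, and was 0.67 against WT 1 alone.

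Among 14 genes for HDAC6 substrates and aggresome partners, 5 were higher and 9 lower, with a median of -0.07, and 0 passed. Cttn, which encodes cortactin, an actin-binding HDAC6 substrate, stood at 672, 446 and 452 in WT, against 862, 779 and 690 in KO. Its log2 difference was 0.59 ± 0.18 (SE), and it was 0.20 against WT 1 alone and 0.78 without WT 1 (limma adjusted p = 0.005). WT 1 lay between the other WT libraries and KO for Cttn, as for the stroma markers, whose part in it was not tested. Tuba1a, an alpha-tubulin gene, stood at 166, 133 and 119 and at 177, 168 and 175, and the HSP70 co-chaperone gene Bag3 at 725, 983 and 831 and at 617, 613 and 748.

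Of 11 genes of polyamine metabolism, on whose products HDAC10 acts, 5 were higher and 6 lower, with a median of -0.04, and 0 passed. Azin1, the antizyme inhibitor that stabilises ornithine decarboxylase, stood at 1420, 1665 and 1557 in WT, against 1154, 1163 and 1312 in KO, without overlap. Its log2 difference was -0.35 ± 0.081 (SE), with a limma adjusted p of 0.158 and of 0.0184 without WT 1. Srm, spermidine synthase, stood at 322, 278 and 269 and at 331, 323 and 344, and Paox, a polyamine oxidase gene, at 195, 154 and 153 and at 218, 226 and 178.

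The NAD-dependent sirtuins, the other family of deacetylases, had 5 of 7 genes higher in the KO mean and a median of 0.09, with overlap for all 7 and 0 past the threshold. Sirt6, a nuclear chromatin deacetylase, stood at 163, 174 and 155 in WT, against 192, 171 and 188 in KO. Sirt7 stood at 482, 610 and 530 and at 490, 478 and 490, and Sirt5 at 88, 95 and 105 and at 106, 104 and 121. Their limma adjusted p-values were 0.302, 0.358 and 0.348.

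**Figure D5:**
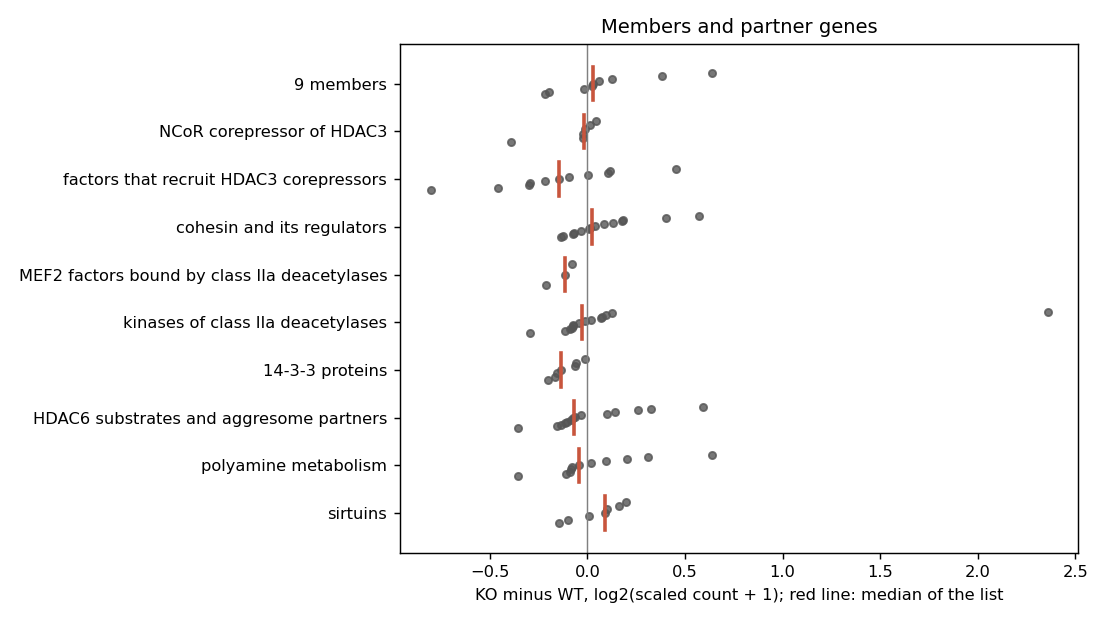
Difference between KO and WT on the log2(scaled count + 1) scale for each tested gene of the members and of 9 partner lists, 1 point per gene, with the median of each list in red. List medians lie between -0.15 and 0.09, and the point at 2.36 is Prkd1, which has 1 scaled count in WT 2.

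The genes whose values followed each member most closely were read from Pearson correlations over the 6 libraries among 10597 candidates, which share library depth, stroma reads and genotype, so that they are a description. For Hdac7 they were Hacd1, Zfp637 and Fcrl1 (r = 0.997, 0.995 and 0.994), and 277 genes exceeded 0.95. Hacd1, which encodes a dehydratase of very long fatty acid synthesis, stood at 59, 48 and 52 in WT, against 95, 80 and 78 in KO. For Hdac6 they were Zfp251, Agbl5 and Vezf1 (0.990, 0.990 and 0.983), and Agbl5, which encodes a tubulin deglutamylase, stood at 86, 103 and 96 and at 128, 127 and 120. For Hdac5 Nt5c and Atp5h came first (0.997 and 0.996), with 435 genes above 0.95. For Hdac8 they were Sfpq, Huwe1 and Srsf1 (0.995, 0.991 and 0.972). The other members had Rad52, Hexdc and Nbdy (Hdac3), Cd93, Gapdh and Mgat2 (Hdac4), Akr1c12, Gatc and Psma3 (Hdac9), Zbtb34, Gtf2ird2 and Stk35 (Hdac10) and Amer1, Pik3ip1 and H2bc21 (Hdac11), with r from 0.954 to 0.993.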

How the data were processed

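Messenger RNA libraries (3 WT, 3 KO) were made from 3 µg of total RNA with a stranded kit and sequenced as single reads of 72 bases, per the labels' protocols. Per the submitters' processing notes, the tools were featureCounts 2.0.3, STAR 2.7.10a, Trimmomatic 0.39, DESeq2 1.36.0 and Picard 2.27.4, and the build was mm10. Their roles, the annotation and the strand setting are not given in the sources used here. The deposited values are whole numbers with nearly equal totals, and in WT 2 the values 6, 17, 29, 40 and 52 never occur, so they were treated as a score, read counts normalized and rounded by the authors, and no count model was used. Exact depth is unknown.

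The 13260 genes that reached a value of 10 in 3 or more libraries entered one fit with limma 3.58.1 (R 4.3.3) on log2(value + 1) with an intensity trend, two-sided, with Benjamini-Hochberg adjustment over all of them at 0.05. All 9 members passed the filter. The log2 differences understate the change of low genes. Exonic lengths are the union of exons in GENCODE M21 (mm10), which held 17297 of the 17313 genes. Tables and motif counts were made with Python 3.11.15 and pandas 2.3.3. The fit was tested on simulated data with independent noise for each gene. Such data lack the differences between libraries that many genes share here, so the fit was not tested under these.

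Named genes are the members, Hdac1, Hdac2, Lyz2, the up to 3 genes of smallest p in each partner list, and for each member the 3 genes of highest correlation with a mean value of at least 50, leaving out predicted models and pseudogenes. A pair of genes that this rule names are not reported here, and list counts leave them out. Ncor1, Smc3, Nr1d1, Nr1h3, Camk4, the marker genes and the genes beside Hdac7 and Hdac6 were named besides these after their values were seen. The members and lists were chosen with earlier results of these data known. Alternatives covered scaling, pseudocount, filter, variance model, each library left out, the replicate block, and KO against WT 1 alone.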

Additional observations from a re-analysis of the deposited data

How the results depend on the processing

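Across 16 alternatives, the 143 differences of the 9 members kept their direction and side of the adjusted threshold in 132, passed it in 1 (Hdac7 without WT 1) and changed sign in 10. The filter, variance model and replicate block settings cannot move a difference, so directions kept under them were fixed in advance. Hdac11 and Prkd1 had no value with a mean of at least 100 as the filter. The count of members called was 0 except without WT 1, where it was 1, and leaving out each library in turn gave 0 to 1 members and 0 to 2363 of all genes. At an unadjusted p under 0.05 1947 genes were higher and 1283 lower with all libraries, and 1072 and 1128 with a mean of at least 100 as the filter. Hdac2 ranged from -0.45 to -0.38 when 1 library was left out and passed only without WT 1 (limma adjusted p = 0.0142). Under cyclic loess Hdac4 was at 0.0212, Hdac8 at -0.0140 and Mef2a at 0.0298. Against WT 1 alone Hdac5 was at 0.0543, Hdac8 at -0.151, Hdac1 at -0.0578, Tbl1xr1 at -0.0446, Cdca5 at -0.0584 and Sirt7 at 0.0118. With 1 library left out Hdac4 ranged from -0.0780 to 0.00921, Hdac8 from -0.0366 to 0.108, Hdac1 from -0.0263 to 0.0488 and Tbl1xr1 from -0.0153 to 0.0936. The cause of these changes was not tested. With the replicate block 0 members and 0 genes were called, and Hdac2 was at -0.41 (limma adjusted p = 0.134). Deviations of same-numbered libraries correlated at 0.53, -0.36 and 0.02, so the numbers were not taken to pair the samples, and WT 2 and WT 3 each followed a KO library of another number more closely. Without exact depth no counting interval can be given, and Hdac11, at 41 to 76 scaled counts, is the member this limits most.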

Other observations

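Genes beside Hdac7 and Hdac6 were read within 100 kb on each side, a window chosen after the data were seen. Vdr, which encodes the vitamin D receptor and lies next to Hdac7 on chromosome 15 (97854425 to 97910630, mm10), stood at 139, 43 and 48 scaled counts in WT, against 328, 234 and 149 in KO. Each KO library was above each WT library, as for 16.1% of all genes, with WT 1 close to KO 3. The log2 difference was 1.76, and no gene passed the adjusted threshold in that fit. Slc48a1, which encodes a heme transporter and shares 29 exonic bases with Hdac7 on the opposite strand, stood at 1000, 1376 and 1212 in WT, against 911, 908 and 1011 in KO, with a log2 difference of -0.33 and groups that overlapped, KO 3 lying above WT 1. Rpap3 in the same window stood at 252 to 264 in WT and 241 to 267 in KO, and Rapgef3 at 76, 95 and 46 and at 80, 84 and 55.

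Around Hdac6, Otud5, Pqbp1, Slc35a2, Timm17b and Pim2 had groups that overlapped, with log2 differences from -0.12 to 0.12. Kcnd1, a potassium channel gene, stood at 22, 10 and 8 in WT, against 36, 37 and 25 in KO. Camk4, a kinase of class IIa deacetylases that was too low to be tested, stood at 6, 2 and 0 in WT, against 43, 16 and 6 in KO.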
